A study of Homo sapiens with 12 samples.

Results

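The ephrins and Eph receptors described here were 10 genes matched by symbol among the 27788 gene symbols counted in every library: the ligands EFNA1, EFNA5, EFNB1 and EFNB2 and the receptors EPHA2, EPHA4, EPHB2, EPHB3, EPHB4 and EPHB6. They were chosen by the measured KO over wild-type fold changes of EFNB2, which went in opposite directions in the 2 cell lines. The KO against wild-type values within each line, and the difference between the lines, therefore belong to the choice and are given as a description without p-values. All 10 symbols were present in every file. In HCT116 all 10 passed the filter on low counts, and in U-87 MG 8 did, since EFNA1 and EPHB6 were at or near 0 counts there.

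RNA was sequenced from 2 human cancer lines, HCT116, a colorectal carcinoma line, and U-87 MG, a glioblastoma line, with 3 libraries in each of 4 groups. The deleted gene, GSTO1, codes for an omega-class glutathione transferase. The groups were HCT116 GSTO1 KO, HCT116 wild type, U-87 MG GSTO1 KO and U-87 MG wild type. Per the labels' protocols, Cas9 came from a lentivirus (hEF1α-Blast-Cas9) kept under blasticidin, and KO cells were grown from single colonies after transfection of tracrRNA and a crRNA against exon 2 of GSTO1. A non-targeting crRNA served as control in that protocol. Whether the wild-type libraries carry Cas9 and that control, and how many colonies stand behind the KO libraries, remains not given in the sources used here, so a difference between KO and wild type cannot be told apart from a difference between colonies. Separate cultures are not named for the 3 libraries of any group, so spreads and p-values measure the variation between these libraries, which may be technical.

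GSTO1 itself averaged 15.8 ± 1.22 CPM (counts scaled to library depth) in HCT116 KO and 63.3 ± 1.74 in HCT116 wild type, and 24.7 ± 0.772 in U-87 MG KO and 134 ± 14.9 in U-87 MG wild type (SD, n = 3 each). Libraries held between 17814142 and 28097179 assigned counts. Libraries of a group differed by more than counting noise in every pair, with a chi-square of counts per degree of freedom between 1.48 and 9.31. The 2 highest values, 8.21 and 9.31, both involved U-87 MG wild-type replicate 3, and without it the count of U-87 MG ephrin and Eph genes past the thresholds given below was still 5. RNR2, a mitochondrial ribosomal RNA, took 1.36% to 1.54% of counts in HCT116 KO against 0.981% to 1.06% in HCT116 wild type, and 0.419% to 0.435% in U-87 MG KO against 0.254% to 0.322% in U-87 MG wild type. Its part in the results below was not tested. Of 9 colon epithelial markers 5 were above 1 FPKM (a level scaled by transcript length and depth) in HCT116, led by KRT8, with CDX1 at 0 in KO and VIL1 at 0 in wild type. None of 6 glial markers reached 1 FPKM in U-87 MG, and SOX10 and AQP4 were at 0 there in both groups. All 5 mesenchymal markers did, led by VIM. Of 2 neural stem markers, only NES passed 1 FPKM, at 19.5 on average in U-87 MG KO and 15.1 in U-87 MG wild type. In HCT116 NES averaged 4.48 FPKM in KO and 6.32 in wild type, and SOX2 was at 0 in U-87 MG wild type. Endothelial markers, listed since EFNB2 and EPHB4 are best known from vessels, summed to 0.564 to 0.966 FPKM in U-87 MG KO and 1.75 to 2.32 FPKM in U-87 MG wild type, and leukocyte markers summed to under 0.5 FPKM in every library.

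Eph receptors form the largest family of receptor tyrosine kinases, and ephrins are their membrane-bound ligands. Ephrin-A proteins are held by a lipid anchor, ephrin-B proteins cross the membrane, and binding between touching cells signals both ways: forward into the cell with the receptor and reverse into the cell with the ephrin. The system is known for repulsion and sorting of cells at boundaries. In the intestinal crypt EPHB2 and EPHB3, targets of β-catenin and TCF, place cells against ephrin-B1 and ephrin-B2. In glioblastoma EPHA2 and EPHB2 have been linked to growth and invasion, and the pair of ephrin-B2 and EPHB4 marks arteries and veins.

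Of the 10 listed genes, those called below with the largest differences between KO and wild type were EFNB1, EFNB2 and EPHB2, and the sequence around their starts is shown. Each stretch of 300 bases spans the transcription start, 5′ to 3′ on the strand of the gene (RefSeq, GRCh38.p14), and capitals mark the GC box GGGCGG on either strand. EFNB2 lies on the minus strand of chromosome 13 (promoter chr13:106535613-106535912), EFNB1 on the plus strand of the X chromosome (chrX:68828771-68829070) and EPHB2 on the plus strand of chromosome 1 (chr1:22710588-22710887).
EFNB2: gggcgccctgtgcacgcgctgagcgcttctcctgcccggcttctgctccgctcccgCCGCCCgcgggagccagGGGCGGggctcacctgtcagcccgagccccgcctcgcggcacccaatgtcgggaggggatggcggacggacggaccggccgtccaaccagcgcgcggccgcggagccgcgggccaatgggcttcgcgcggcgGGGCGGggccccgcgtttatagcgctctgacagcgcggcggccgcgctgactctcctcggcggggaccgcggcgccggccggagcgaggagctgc
EFNB1: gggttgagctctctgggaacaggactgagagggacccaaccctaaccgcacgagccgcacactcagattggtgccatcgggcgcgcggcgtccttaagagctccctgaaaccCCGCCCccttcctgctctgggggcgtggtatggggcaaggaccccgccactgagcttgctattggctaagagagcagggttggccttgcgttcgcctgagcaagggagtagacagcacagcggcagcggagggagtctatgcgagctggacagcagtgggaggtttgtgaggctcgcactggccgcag
EPHB2: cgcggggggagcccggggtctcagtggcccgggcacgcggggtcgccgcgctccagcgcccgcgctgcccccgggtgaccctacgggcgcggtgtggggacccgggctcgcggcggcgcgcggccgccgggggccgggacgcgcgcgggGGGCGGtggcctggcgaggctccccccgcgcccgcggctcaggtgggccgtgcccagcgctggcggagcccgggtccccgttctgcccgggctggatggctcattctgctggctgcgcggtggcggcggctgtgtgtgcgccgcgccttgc
The EFNB2 stretch held 3 GC boxes and 49 CpG dinucleotides, the EPHB2 stretch 1 GC box and 49 CpG, and the EFNB1 stretch 1 GC box and 18 CpG, where the median of 27305 human promoters was 14. EFNB2 and EPHB2 each held more CpG than 98.4% of these promoters, and EFNB1 more than 55.5%. GC boxes were found in 10 of the 10 promoters, and in 44.6% of all promoters of this length. The other motifs searched on both strands were each found in 1 of the 10 promoters. The TCF/LEF core CTTTGA was found in EPHA2 (13.1% of all promoters) and the RBPJ motif GTGGGAA in EFNA1 (6.28%). The core of the interferon-stimulated response element was found in EPHA4 (3.65%) and the hypoxia response core ACGTG in EPHB3 (21.6%). A match is a run of letters and no evidence of a bound factor.

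Among the ligands, EFNB2 encodes ephrin-B2, the ligand of EPHB4 and other EphB receptors and of EPHA4. In HCT116 its 3 KO libraries had 61.05, 59.3 and 55.1 CPM, against 31.9, 29.4 and 30.8 CPM in wild type. All HCT116 KO libraries were higher than all wild-type libraries. In U-87 MG the KO libraries had 41.4, 40.1 and 43.5 CPM, against 132.5, 132.2 and 130.9 CPM in wild type. Here every KO library was far lower than every wild-type library. The fitted log2 fold change of KO over wild type was 0.93 ± 0.06 in HCT116 and -1.66 ± 0.05 in U-87 MG (± SE), and the first minus the second was 2.60 ± 0.08. KO cells of the 2 lines were therefore closer to each other in EFNB2 (on average 58.5 CPM in HCT116 KO and 41.7 CPM in U-87 MG KO) than wild-type cells were (30.7 CPM in HCT116 and 132 CPM in U-87 MG). CPM was scaled within each line. In FPKM, KO averaged 10.9 in HCT116 and 8.45 in U-87 MG, and wild type 5.91 in HCT116 and 26.4 in U-87 MG. In bulk RNA, a lower level in fewer cells and less RNA per cell cannot be told apart. An unnamed gene annotated on the opposite strand (ENSG00000284966) holds 21.4% of the 50-base stretches of the EFNB2 transcript (1058 of 4946). The libraries were stranded, but whether the counting used strand remains not given in the sources used here, so its reads could be among those of EFNB2.

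EFNB1 encodes ephrin-B1, the other transmembrane ligand of the EphB receptors here. In U-87 MG the KO libraries had 32.1, 33.5 and 35.7 CPM, against 6.08, 5.73 and 5.39 CPM in wild type. The groups were far apart, with KO at 5.88-fold of wild type (log2 2.56 ± 0.09). HCT116 libraries had 31.9, 31.01 and 37.4 CPM in KO and 31.2, 31.01 and 35.6 CPM in wild type, and the groups overlapped (log2 0.04 ± 0.08). The 2 ephrin-B genes thus differed in opposite directions in U-87 MG, and only EFNB2 of the pair passed the thresholds in HCT116.

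EFNA1 and EFNA5 encode lipid-anchored ligands of the EphA receptors. EFNA1 had 14.5, 14.4 and 14.5 CPM in HCT116 KO, against 10.2, 10.5 and 11.9 CPM in wild type (log2 0.42 ± 0.09). The groups did not overlap, but the difference stayed under the 1.5-fold required of a call. In U-87 MG, EFNA1 had 2 counts over the 3 KO libraries and 1 count over the 3 wild-type libraries, too few for a fold. EFNA5 had 3.18, 3.26 and 4.10 CPM in HCT116 KO, against 1.28, 1.39 and 1.18 CPM in wild type. That is the largest log2 fold change of the 10 genes in HCT116 (1.46 ± 0.20), with no overlap, at a mean level of 0.358 FPKM, under the minimum required of a call. U-87 MG held more of it, 15.6, 14.5 and 16.4 CPM in KO against 13.4, 13.4 and 14.4 CPM in wild type, a log2 fold change of 0.17 ± 0.09.

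**Figure D1:**
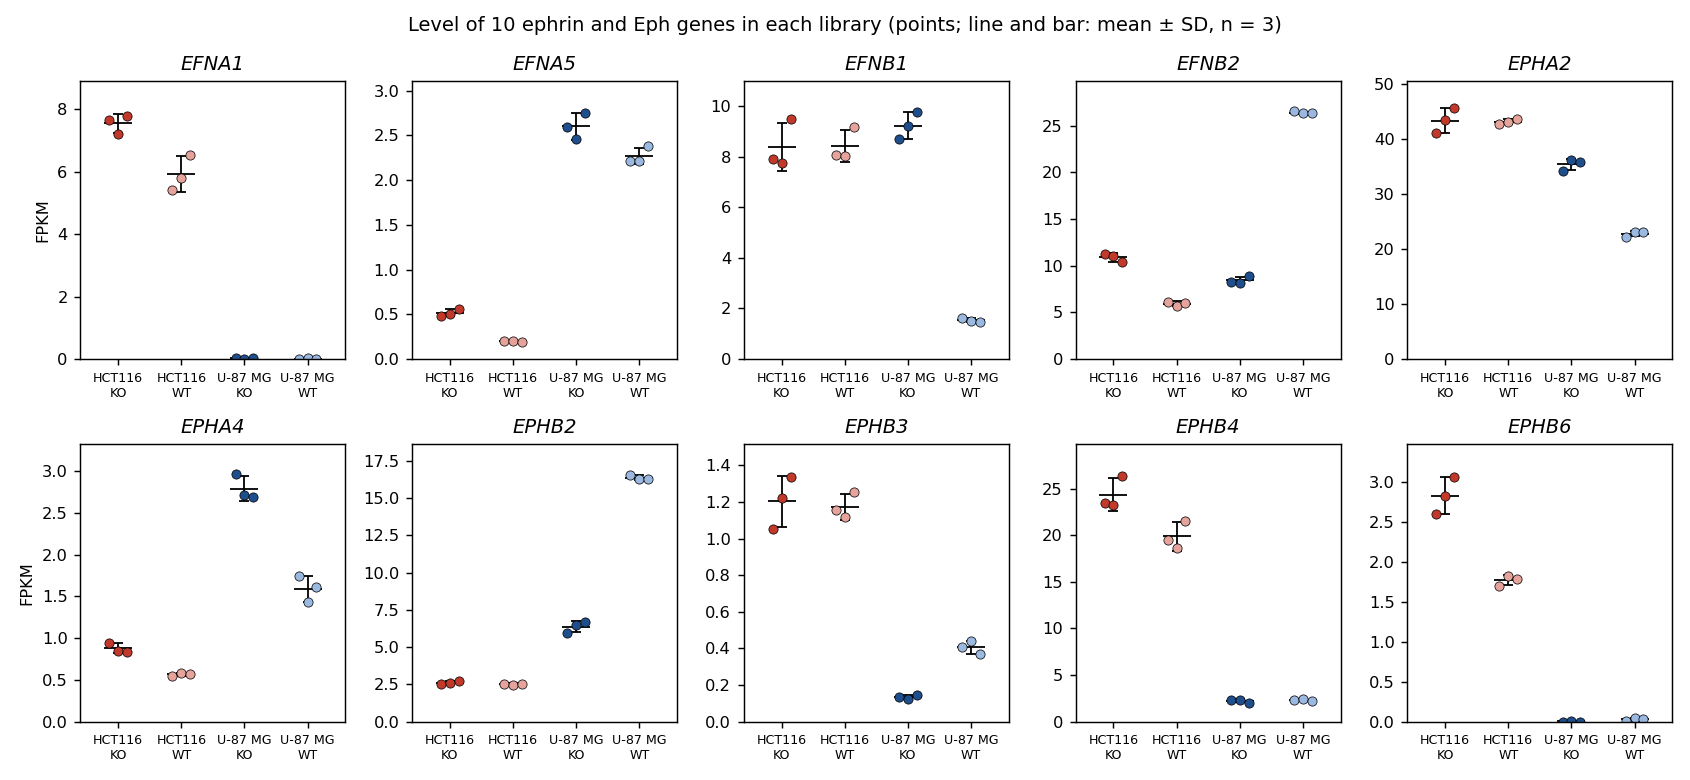
FPKM of each gene (vertical axes, each from 0) in the 12 libraries, by line and genotype; points are libraries, and the line and bar give the mean ± SD of 3. EFNB2 is higher in HCT116 KO than in wild type (10.9 against 5.91 FPKM on average) and lower in U-87 MG KO than in wild type (8.45 against 26.4 FPKM), while EFNB1 is higher in U-87 MG KO (9.24 against 1.54 FPKM).

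Of the EphA receptors, EPHA2, which binds ephrin-A1 and is often abundant in carcinomas and gliomas, had the highest FPKM of the receptors in all 4 groups. In U-87 MG the KO libraries had 157, 164.8 and 161.9 CPM, against 102, 106 and 105 CPM in wild type, with no overlap and a log2 fold change of 0.63 ± 0.04. In HCT116 its values overlapped, with 204.7, 217 and 222 CPM in KO and 203, 205 and 207 CPM in wild type (log2 0.06 ± 0.04). EPHA4, which binds ephrins of both classes, differed in the same direction in both lines. It had 8.09, 6.63 and 6.86 CPM in HCT116 KO against 4.16, 4.51 and 4.48 CPM in wild type (log2 0.71 ± 0.13). In U-87 MG it had 21.9, 20.0 and 19.5 CPM in KO against 12.7, 10.8 and 12.1 CPM in wild type (log2 0.80 ± 0.09). The groups did not overlap in either line, and the log2 change in HCT116 minus that in U-87 MG was -0.08 ± 0.15.

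EPHB2, a receptor of the crypt base that binds ephrin-B1 and ephrin-B2, had 5.97, 6.496 and 6.66 FPKM in U-87 MG KO, against 16.55, 16.24 and 16.25 FPKM in wild type. No library of one group came near the other, and the log2 fold change was -1.37 ± 0.05. In HCT116 it had 33.7, 34.5 and 36.3 CPM in KO and 32.9, 32.3 and 33.4 CPM in wild type. Those groups also did not overlap, but by a small margin (log2 0.08 ± 0.06). EPHB3, its crypt partner, was low in U-87 MG, with 0.758, 0.577 and 0.682 CPM in KO against 1.98, 2.21 and 1.75 CPM in wild type. KO libraries lay below wild type there (log2 -1.55 ± 0.27), at 0.271 FPKM on average, under the minimum for a call. HCT116 had 5.97, 6.95 and 7.15 CPM in KO and 6.13, 5.59 and 6.60 CPM in wild type, which overlapped. EPHB2 and EPHB3 were thus both lower in U-87 MG KO, and neither passed the thresholds in HCT116.

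EPHB4, the receptor best known as the partner of ephrin-B2, had 126.8, 126.7 and 141 CPM in HCT116 KO, against 101, 97.2 and 112.5 CPM in wild type. These did not overlap (log2 0.35 ± 0.06, under 1.5-fold). In U-87 MG it had 11.6, 11.6 and 9.91 CPM in KO and 11.6, 12.3 and 11.1 CPM in wild type, which overlapped (log2 -0.08 ± 0.10). The log2 fold change of EPHB4 was thus smaller in size than that of EFNB2 in both lines. EPHB6, whose kinase domain is inactive, had 12.8, 13.4 and 14.8 CPM in HCT116 KO against 8.03, 8.78 and 8.40 CPM in wild type (log2 0.70 ± 0.10). In U-87 MG it had 1 count over the KO libraries and 9 over the wild-type libraries, a ratio of wild type over KO of 8.62 with an exact 95% interval of 1.19 to 378, which covers counting error only.

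Calls required an adjusted p under 0.05 (edgeR's quasi-likelihood test, Benjamini-Hochberg over every gene tested), more than 1.5-fold and over 0.5 FPKM on average. Within a line that average was over its libraries, and for comparisons between lines it had to pass in at least 1 line. In HCT116, 3 of 10 tested ephrin and Eph genes were called, EFNB2, EPHA4 and EPHB6, all higher in KO, where 11.9% of all 14068 genes tested were called, 7.82% higher and 4.07% lower. In U-87 MG, 5 of 8 were called, EFNB1, EPHA2 and EPHA4 higher and EFNB2 and EPHB2 lower, where 16.2% of all 13741 genes were, 8.06% higher and 8.15% lower. For the difference between the lines, 6 of 10 were called (EFNA5, EFNB1, EFNB2, EPHB2, EPHB3 and EPHB6), 5 with a positive and 1 with a negative difference, against 16.9% of 15613 genes (9.66% positive and 7.24% negative), and the call of EPHB6 rests on 10 counts in U-87 MG. With limma on log2(FPKM + 1), 4 were called for this difference, EFNB2 and EPHB2 positive and EFNB1 and EPHA2 negative. Nothing is read from these shares, since the genes were listed with this contrast known. KO and wild-type libraries did not overlap for 7 of 10 genes in HCT116, all higher in KO, against 61.6% of all genes, and for 7 of 8 in U-87 MG, 4 higher and 3 lower, against 64% of all genes. The median log2 fold change was 0.38 over the 10 genes in HCT116 and 0.05 over the 8 in U-87 MG, and 0.01 over all genes in each line. On FPKM values with limma on log2(FPKM + 1), 1 HCT116 gene was called, EFNB2, since this scale shrinks folds of low genes. With limma on log2(FPKM + 0.1), EFNB2 and EPHB6 were called in HCT116, and EPHA4 was not (log2 0.55).

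**Figure D2:**
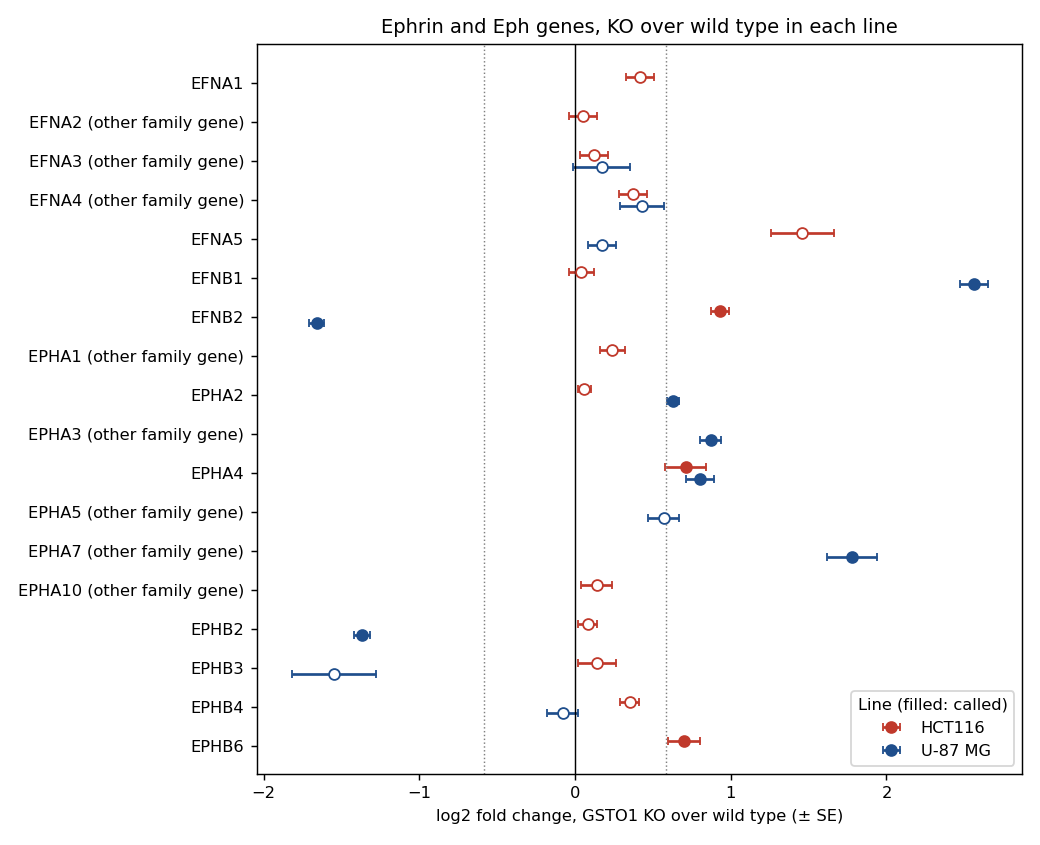
Log2 fold change of KO over wild type (± SE) of the ephrin and Eph genes that passed the filter on low counts, HCT116 in red and U-87 MG in blue; filled points were called, dotted lines mark 1.5-fold, and genes marked as other family genes are outside the 10. EFNB2 lies on opposite sides of 0 in the 2 lines (0.93 and -1.66), EPHA4 on the same side (0.71 and 0.80), and EFNB1 reaches 2.56 in U-87 MG.

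Comparison of the lines within 1 genotype did not enter the choice of the genes other than EFNB2, so it could be tested for the other 9. Line, read layout (single reads for HCT116, paired for U-87 MG) and sequencing run cannot be told apart in it. Between wild-type lines 56.4% of all 14981 genes tested were called, 27.7% higher and 28.8% lower in HCT116. No count over the listed genes is given, since EFNB2 entered the choice and EFNA1 and EPHB6 passed the filter on low counts through HCT116 alone. Between wild-type lines, EFNA5 passed the minimum FPKM through U-87 MG alone (2.27, against 0.198 in HCT116). EPHB3 passed it through HCT116 alone (1.18, against 0.406 in U-87 MG), as it did between KO lines. That minimum enters the calls and not the p-values. EPHB4 was 2.98 ± 0.07 higher on the log2 scale in HCT116 wild type than in U-87 MG wild type (edgeR, adjusted p = 3.0e-21), EFNB1 2.33 ± 0.09 higher (adjusted p = 7.4e-17), EPHB3 1.44 ± 0.16 higher (adjusted p = 1.5e-08) and EPHA2 0.80 ± 0.04 higher (adjusted p = 2.2e-14). EPHB2 was lower in HCT116 wild type (log2 -2.78 ± 0.05, adjusted p = 7.1e-24), as were EFNA5 (-3.58 ± 0.14, adjusted p = 3.2e-17) and EPHA4 (-1.60 ± 0.12, adjusted p = 6.4e-12). EFNB2, given without a test, was -2.27 ± 0.05. EFNA1 had 772 counts in HCT116 wild type and 1 in U-87 MG wild type, a depth-scaled ratio of 779 (exact 95% interval 139 to 30810), and EPHB6 had 601 and 9 (67.4, interval 35.3 to 148). These intervals cover counting error only, and the ratios of EFNA1 and EPHB6 are a description.

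Between KO lines 59.1% of all 15061 genes tested were called, 29.8% higher and 29.2% lower in HCT116. EFNB1 and EPHA2 were not among them. EFNB1, at 2.33 between wild-type lines, had a log2 difference of -0.15 ± 0.07 between KO lines (edgeR, adjusted p = 0.057). EPHA2 passed on p but not on size (0.27 ± 0.04, adjusted p = 9.8e-07). EPHB2 was -1.30 ± 0.06 (adjusted p = 1.4e-20), EPHB3 3.15 ± 0.20 (adjusted p = 1.5e-16), EPHB4 3.43 ± 0.07 (adjusted p = 1.6e-31), EFNA5 -2.26 ± 0.12 (adjusted p = 5.8e-19) and EPHA4 -1.66 ± 0.10 (adjusted p = 2.1e-17). EFNB2, again without a test, was 0.34 ± 0.06. EFNA1 had 881 counts in HCT116 KO and 2 in U-87 MG KO (ratio 506, interval 140 to 4183), and EPHB6 had 837 and 1 (ratio 961, interval 172 to 38010). Again the intervals cover counting error only and the ratios are a description. A smaller difference between lines in KO than in wild type restates the difference of the KO changes and is no separate result.

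FPKM is scaled by gene length, so it allows genes to be ordered within a group. In HCT116 KO the order began with EPHA2 (43.4 FPKM), EPHB4 (24.3), EFNB2 (10.9), EFNB1 (8.39) and EFNA1 (7.54), of which EFNB1 and EFNA1 overlapped between libraries. In HCT116 wild type it was EPHA2 (43.2), EPHB4 (19.9), EFNB1 (8.43), EFNA1 (5.92) and EFNB2 (5.91), of which EFNA1 and EFNB2 overlapped. EFNB2 thus stood above EFNB1 in HCT116 KO and below it in HCT116 wild type. In U-87 MG KO the order began with EPHA2 (35.4 FPKM), EFNB1 (9.24), EFNB2 (8.45), EPHB2 (6.37), EPHA4 (2.79), EFNA5 (2.60) and EPHB4 (2.25), with overlap between EFNB1 and EFNB2 and between EPHA4 and EFNA5. In U-87 MG wild type it was EFNB2 (26.4), EPHA2 (22.8), EPHB2 (16.4), EPHB4 (2.34), EFNA5 (2.27), EPHA4 (1.59) and EFNB1 (1.54), with overlap between EPHB4 and EFNA5 and between EPHA4 and EFNB1. EFNB2 was the most abundant of the 10 only in U-87 MG wild type, and EPHA2 in the other 3 groups.

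As shares of the summed FPKM of all 8 ephrin genes, EFNB2 made up 31.5% ± 0.765 in U-87 MG KO and 74.9% ± 1.12 in U-87 MG wild type, and EFNB1 34.5% ± 0.506 in U-87 MG KO and 4.38% ± 0.293 in U-87 MG wild type (SD, n = 3). The ratio of EFNB1 to EFNB2 was 1.09 ± 0.0393 in U-87 MG KO and 0.0585 ± 0.00318 in U-87 MG wild type. In HCT116 it was 0.772 ± 0.122 in KO and 1.43 ± 0.112 in wild type. The ephrin FPKM of U-87 MG was thus spread more evenly over the genes in KO than in wild type. The summed level of the 8 ephrins was 26.8 ± 1.53 FPKM in U-87 MG KO and 35.2 ± 0.371 in wild type, and 53.9 ± 1.94 in HCT116 KO and 45.1 ± 0.703 in wild type.

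Among the 14 Eph receptor genes, EPHA2 held 63.8% ± 0.371 of the summed FPKM in U-87 MG KO and 47.6% ± 0.783 in U-87 MG wild type, while EPHB2 held 11.5% ± 0.386 in KO and 34.2% ± 0.537 in wild type. EphB receptors together held 15.9% ± 0.250 of receptor FPKM in U-87 MG KO and 40.1% ± 0.538 in U-87 MG wild type. In HCT116 the split was 38.0% ± 0.719 in KO and 33.9% ± 1.23 in wild type, with EPHB4 at 29.9% in KO and 26.5% in wild type. The receptor sum was 55.5 ± 1.41 FPKM in U-87 MG KO and 47.9 ± 0.253 in wild type, and 81.5 ± 4.75 in HCT116 KO and 74.8 in wild type. The EphB share was thus lower in U-87 MG KO than in its wild type, and slightly higher in HCT116 KO than in its wild type.

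**Figure D3:**
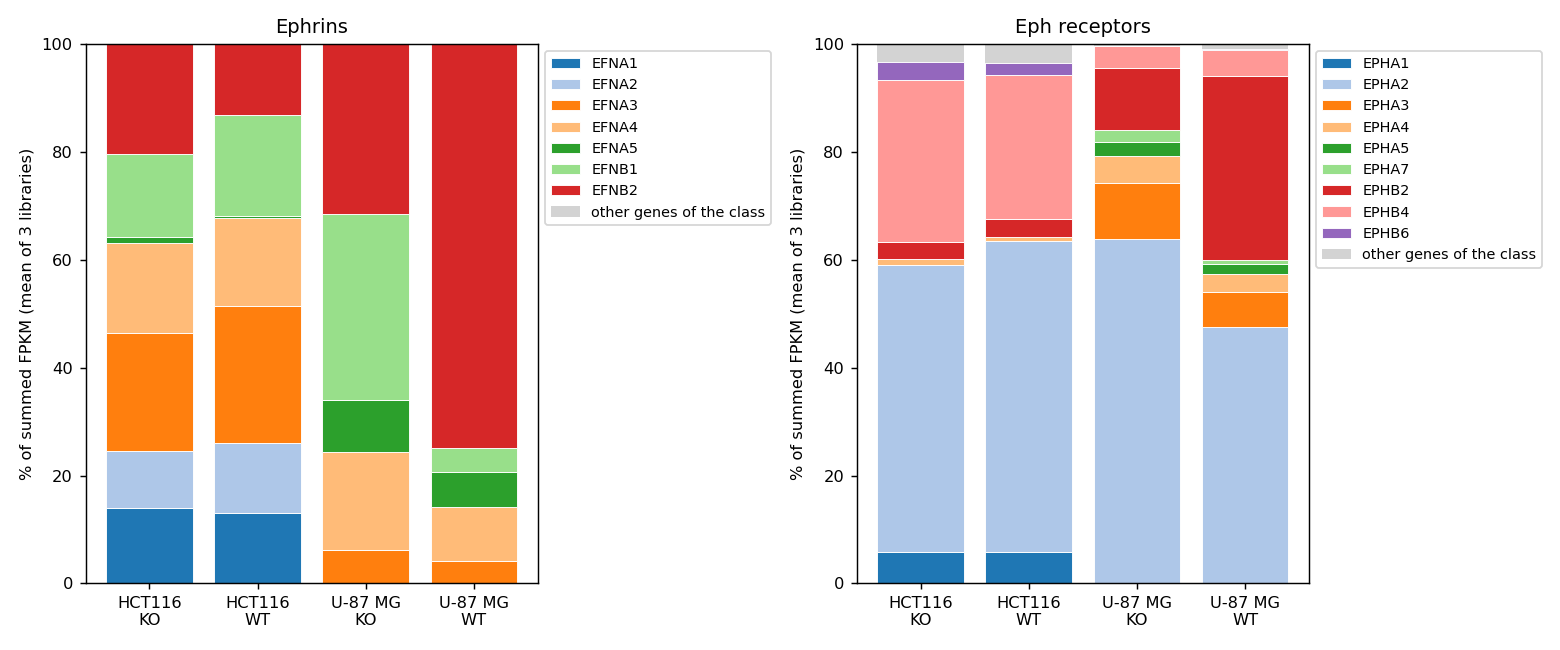
Share of each gene in the summed FPKM of the 8 ephrin genes (left) and the 14 Eph receptor genes (right), mean of 3 libraries, by line and genotype. EFNB2 (red, left) makes up 31.5% of ephrin FPKM in U-87 MG KO and 74.9% in wild type, and EPHB2 (red, right) 11.5% of receptor FPKM in U-87 MG KO and 34.2% in wild type.

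The other 12 genes of the family give the setting. In HCT116, 5 of them were tested (EFNA2, EFNA3, EFNA4, EPHA1 and EPHA10). By edgeR or by DESeq2 0 were called, where edgeR called 11.9% of all genes. Of these 5, 2 had an unadjusted p under 0.05 by edgeR. EFNA4 was 0.37 ± 0.09 higher in KO on the log2 scale (edgeR, adjusted p = 0.00209) and EPHA1 0.24 ± 0.08 (adjusted p = 0.019), both under 1.5-fold. In U-87 MG, 5 were tested and 2 were called, both higher in KO, against 16.2% of all genes called and 8.06% called higher. EPHA3, a receptor for ephrin-A5, averaged 34.4 ± 0.255 CPM in KO and 18.8 ± 0.383 CPM in wild type (log2 0.87 ± 0.07, adjusted p = 2.7e-10). EPHA7 averaged 6.58 ± 0.0497 CPM in KO and 1.91 ± 0.248 CPM in wild type (log2 1.78 ± 0.16, adjusted p = 1.7e-09). EPHA5 passed on p but missed the fold (0.57 ± 0.10, adjusted p = 5.8e-05). EPHA3, EPHA5 and EPHA7 had 0 counts in all HCT116 libraries, and EPHA1 had 0 in all U-87 MG libraries. With EPHA2 and EPHA4 of the listed genes, the 5 EphA receptors tested in U-87 MG had positive log2 fold changes (0.57 to 1.78). The 3 EphB receptors tested there had negative ones (-0.08 to -1.55), a grouping made after the values were seen. Only EPHB2 of these 3 EphB receptors was called, and the EPHB4 values overlapped between KO and wild type. EFNA3 and EFNA4 share 45.5% and 11.6% of their 50-base stretches with the readthrough gene EFNA4-EFNA3, so their counts are uncertain.

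Of 44 genes of Eph forward signalling (kinases, adaptors, exchange factors and GTPases below the receptors), 6 of 41 tested were called in HCT116, 3 higher and 3 lower, against 11.9% of all genes. TIAM1, an exchange factor for RAC1, rose to 264.5 ± 6.40 CPM in KO, against 104 ± 2.11 CPM in wild type (log2 1.34 ± 0.04, adjusted p = 1.9e-15). SRGAP1, which stimulates GTP hydrolysis by CDC42 and RHOA, fell by 1.50 on the log2 scale, as all changes from here on are given (adjusted p = 2.4e-14), and PIK3R1, the regulatory subunit of PI3-kinase, rose by 1.00 (adjusted p = 2.4e-10). FYN, a SRC-family kinase used by both receptors and ephrins, rose by 1.10 (adjusted p = 8.7e-09). In U-87 MG, 6 of 39 were called, again 3 higher and 3 lower, against 16.2% of all genes. The adaptor CRKL fell by 0.87 (adjusted p = 1.6e-11) and the cofilin kinase LIMK2 fell by 0.83 (adjusted p = 9.0e-09), while RASA1, a RAS GTPase activator, rose by 0.61 (adjusted p = 8.5e-11) and PIK3R1 rose by 0.83 (adjusted p = 4.8e-10). RASA1 shares 13.01% of its 50-base stretches with the antisense gene CCNH. CRKL and LIMK2 both lie on chromosome 22, and the part of that chromosome in their values was not tested. Over the list, the median log2 fold change stood at -0.01 in HCT116 and -0.07 in U-87 MG, near the 0.01 of all genes.

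For ephrin-B reverse signalling, 3 of 16 tested genes were called in HCT116 and 3 of 17 in U-87 MG, all higher in KO, where 7.82% and 8.06% of all genes were called higher and 11.9% and 16.2% in either direction. The claudin CLDN4, which binds ephrin-B1, rose by 0.95 in HCT116 (adjusted p = 1.4e-09) and by 1.09 in U-87 MG (adjusted p = 0.0044), where it was near 1 CPM. PARD6A, a polarity protein, rose by 0.79 in HCT116 (adjusted p = 2.6e-04) and by 1.54 in U-87 MG (adjusted p = 3.7e-07). PTPN13, a phosphatase that acts on ephrin-B, rose by 0.90 in U-87 MG (adjusted p = 3.4e-12). FYN, which is also on the forward list, was the third called gene in HCT116. The list's medians were 0.12 in HCT116 and 0.04 in U-87 MG. Of genes for cleavage and turnover of ephrins and Ephs, 2 of 14 were called in HCT116, against 11.9% of all genes, and 1 of 16 in U-87 MG, against 16.2%. MMP14, a membrane protease that cuts EPHA2, fell to 1.77 ± 0.379 CPM in HCT116 KO, against 15.3 ± 0.319 CPM in wild type (log2 -3.11 ± 0.13, adjusted p = 1.9e-13). CBLB, a ubiquitin ligase, rose by 0.70 there (adjusted p = 1.7e-06). NCSTN, a γ-secretase subunit, rose by 0.87 in U-87 MG (adjusted p = 8.0e-14). The medians of this list were 0.06 in both lines.

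Notch and Wnt signalling were listed since EFNB2 is a Notch target in vessels and EPHB2 and EPHB3 are Wnt/TCF targets in the crypt. In HCT116, 5 of 15 tested Notch genes were called, all higher in KO, against 11.9% of all genes called and 7.82% called higher, and their median was 0.23. The ligand JAG1 rose to 121 ± 3.73 CPM in KO, against 44.3 ± 1.02 CPM in wild type (log2 1.45 ± 0.05, adjusted p = 7.7e-15). The receptor NOTCH3 rose by 1.02 (adjusted p = 1.1e-10), the target gene HES1 by 0.82 (adjusted p = 8.1e-08) and the ligand DLL4 by 0.98 (adjusted p = 1.1e-04). In U-87 MG, 2 of 11 were called, both lower, against 16.2% of all genes called and 8.15% called lower, and the median was -0.57. NOTCH3 fell by 0.90 (adjusted p = 6.9e-10), and HES1 fell to 0.187 ± 0.0741 CPM in KO, against 1.99 ± 0.460 CPM in wild type (log2 -3.39 ± 0.39, adjusted p = 9.2e-08). NOTCH3 and HES1 thus moved in the same directions as EFNB2 in both lines, and any link between them was not tested.

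Among Wnt/TCF target genes, 3 of 11 tested were called in HCT116, against 11.9% of all genes. The adhesion receptor CD44 rose by 0.90 (adjusted p = 6.4e-14) and the receptor ligase RNF43 by 0.85 (adjusted p = 5.2e-12), while AXIN2 fell by 1.21 (adjusted p = 6.0e-11). In U-87 MG, 4 of 12 were called, all lower in KO, against 16.2% of all genes called and 8.15% called lower. ZNRF3, a ligase that removes Wnt receptors, fell by 1.34 (adjusted p = 4.1e-11), the transcription factors TCF7 by 0.72 (adjusted p = 1.6e-10) and LEF1 by 0.80 (adjusted p = 2.7e-06), and MYC by 0.77 (adjusted p = 1.6e-10). AXIN2, CD44 and RNF43 were not called in U-87 MG, at -0.14, 0.25 and 0.52. EPHB2 was also lower in U-87 MG KO, and any link between it and these genes was not tested. The medians were -0.30 in HCT116 and -0.22 in U-87 MG. RNF43 shares 69.6% of its 50-base stretches with other annotated genes, AXIN2 30.2% and LEF1 6.64%, so their counts are uncertain. ZNRF3 lies on chromosome 22, as CRKL and LIMK2 do, and the part of that chromosome in its value was not tested.

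Genes beside EFNB2 on chromosome 13 were examined next. The gene spans 106489745 to 106535662 on the minus strand (GRCh38, GENCODE). Its closest tested neighbours were ARGLU1, 6.01 kb away, and the long noncoding RNA LINC00460, 105 kb away. LINC00460 followed EFNB2 in both lines, with a log2 fold change of 1.23 ± 0.19 in HCT116 and -1.29 ± 0.09 in U-87 MG, both called. The other 5 of the 6 nearest tested genes (ARGLU1, ERCC5, BIVM, LIG4 and ABHD13) were called lower in U-87 MG KO, between -0.66 and -0.81, and none of the 5 was called in HCT116, where they lay between -0.03 and 0.28. Windows of 5 Mb to each side were then taken, a choice made after these values were seen. Around EFNB2 in U-87 MG, 16 of 20 tested genes were called lower and 0 higher, with a median log2 fold change of -0.84, and 18 of the 20 were below 0. EFNB2 itself was 0.82 below that median. In HCT116 the same window held 18 genes, 1 called lower and 1 higher, with a median of 0.04, and EFNB2 lay 0.89 above it. Around the other 9 genes the window medians lay between -0.05 and 0.19 in both lines. On chromosome 13 as a whole, 67 genes were called lower and 15 higher of 237 tested in U-87 MG, with a median of -0.21. Over all genes tested in U-87 MG, 8.15% were called lower and 8.06% higher, with a median of 0.01. In HCT116, 12 genes of chromosome 13 were called lower and 20 higher of 227 tested, with a median of 0.03. Over all genes tested in HCT116, 4.07% were called lower and 7.82% higher. The lower EFNB2 level in U-87 MG KO thus came with lower levels of most genes tested around it, and the part that this stretch of the chromosome has in the EFNB2 value was not tested.

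**Figure D4:**
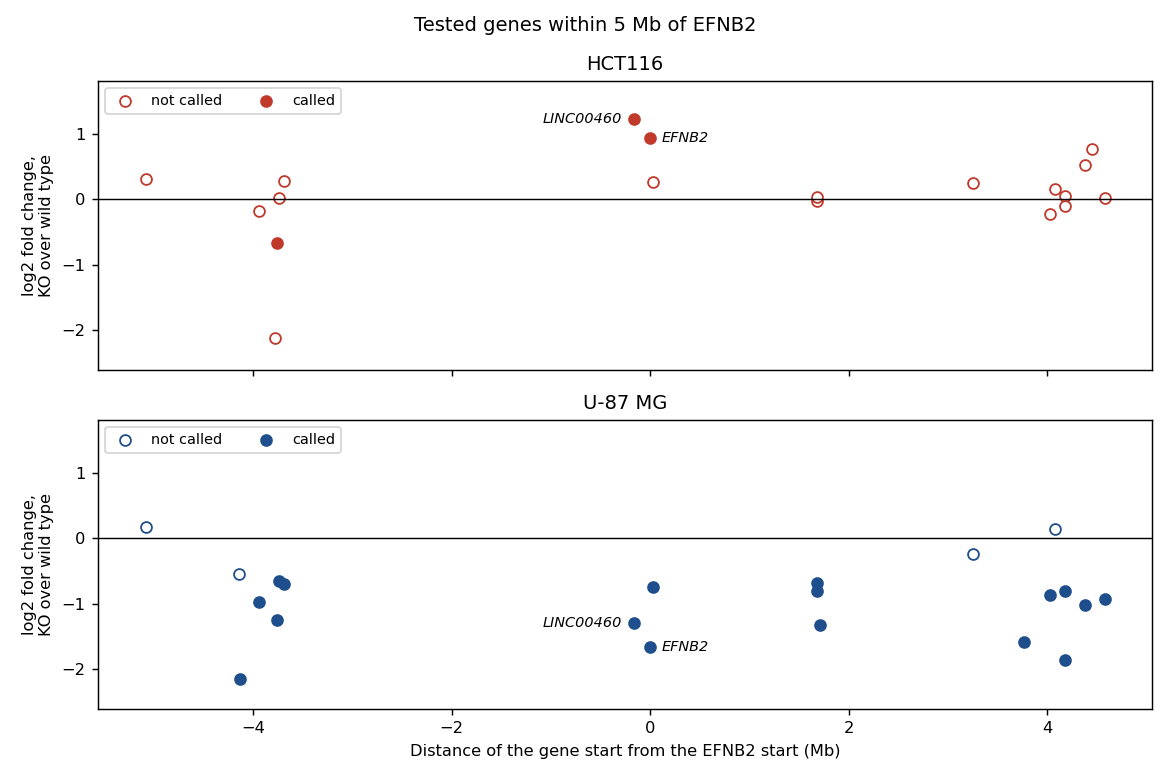
Log2 fold change of KO over wild type of each tested gene within 5 Mb of EFNB2, by distance of its start from the EFNB2 start in Mb, in HCT116 (top) and U-87 MG (bottom); filled points were called. In U-87 MG 16 of the 20 genes around EFNB2 were called lower (median -0.84), and in HCT116 1 of 18 was (median 0.04).

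The genes whose pattern was most like that of EFNB2 were sought by Pearson correlation of log2 CPM over the 12 libraries after centring each line, among 9056 genes. These were NFKBIA (r = 0.994), ATF4 (0.994), XBP1 (0.993), LIF (0.991) and ARFGAP3 (0.989). NFKBIA encodes the NF-κB inhibitor IκBα, ATF4 and XBP1 encode transcription factors of the stress responses to amino acid shortage and unfolded proteins, and LIF encodes a cytokine. Their log2 fold changes were smaller than those of EFNB2, between 0.34 and 0.69 in HCT116 and between -0.68 and -1.17 in U-87 MG. ATF4, XBP1, LIF and ARFGAP3 lie on chromosome 22, and NFKBIA lies on chromosome 14. The part that chromosome 22 has in these values was not tested. The most opposite patterns were those of B4GAT1 (r = -0.994), TGOLN2 (-0.993) and the keratin KRT80 (-0.989). The 12 points are 4 groups of 3 libraries, so these values describe the 4 group means more than independent samples. On log2(FPKM + 1), 4 of the first 5 genes were the same.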

How the data were processed

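RNA sequencing of 12 libraries was used, 3 per group, and samples were grouped by their titles. Per the labels' protocols, stranded mRNA libraries (TruSeq) gave 50 bp reads. The submitters' processing notes name STAR 2.5.2, featureCounts 1.6.1, Cufflinks 2.2.1 and GRCh38, and the design text gives their roles: STAR mapped the reads. From featureCounts the authors deposited a count table (whole reads by symbol). From Cufflinks with refGene the authors deposited FPKM values. Per the series' design text, the authors tested counts with DESeq2 1.18.1 and used the thresholds kept here. How strand, multi-mapped reads and pairs were counted remains not given in the sources used here.

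Counts were tested with edgeR 4.0.16 (R 4.3.3; TMM, filterByExpr, robust glmQLFit, glmQLFTest) on the whole table, in 1 fit of 6 libraries per comparison and 1 fit of all 12 in 4 groups for the difference between lines. The SE of a log2 fold change is its coefficient divided by the square root of F. CPM was each count scaled to the library's counts in genes past the filter on low counts, times its TMM factor. Both were taken within each line, so CPM of the 2 lines were not scaled together. Log2 CPM, used for correlations, took a prior count of 2 and the total counts of each library, without TMM factors or the filter on low counts. Where a group had 3 counts or fewer no fold was taken from the fit, and ratios carry exact conditional 95% intervals for counting error. Alternatives were RLE size factors, no count filter, DESeq2 1.42.0, limma 3.58.1 on log2(FPKM + 1) and log2(FPKM + 0.1), a minimum FPKM of 2, the replicate number as a block, 1 fit of all libraries and leaving out each library. The steps were tested on simulated counts. Genes, lists and tests were chosen with earlier results of these data known. Named were the 10 genes, GSTO1, up to 4 called genes per list and line with the smallest adjusted p, the 5 most and 3 least EFNB2-like genes with FPKM above 2, the 3 nearest tested genes on each side of EFNB2, and markers at 0 or leading a list. Other family genes and RNR2 named beyond that were chosen after their values were seen. Positions and 50-base stretches came from GENCODE on GRCh38, and promoters from RefSeq GRCh38.p14, which held all 10 genes.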

Additional observations from a re-analysis of the deposited data

Results flagged for a closer look

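The change in KO against wild type differed between the lines for the genes below, given as the log2 fold change in HCT116 minus that in U-87 MG. Among the listed ephrin and Eph genes it was 2.60 for EFNB2, 1.70 for EPHB3, 1.47 for EPHB2, 1.30 for EFNA5 and -2.50 for EFNB1. These 5 belong to the contrast that chose the genes and carry no test. The values for EFNA5 and EPHB3 fell to 0.20 and 0.33 on log2(FPKM + 1), since both genes were low in a line.

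In the signalling lists the difference was tested by edgeR's interaction term over all genes, with Benjamini-Hochberg adjustment. On the forward list it was 2.00 for TIAM1 (adjusted p = 3.8e-20), 1.50 for FYN (adjusted p = 4.2e-14), -1.04 for SRGAP1 (adjusted p = 1.3e-11), 0.80 for LIMK2 (adjusted p = 8.9e-08) and 0.60 for CRKL (adjusted p = 2.8e-08). In reverse signalling and turnover it was -0.73 for PARD6A (adjusted p = 0.0212), -0.77 for PTPN13 (adjusted p = 2.2e-09), -3.29 for MMP14 (adjusted p = 5.3e-21) and 0.88 for CBLB (adjusted p = 1.8e-07). Among Notch genes it was 4.22 for HES1 (adjusted p = 3.4e-12), 2.03 for JAG1 (adjusted p = 3.4e-20) and 1.94 for NOTCH3 (adjusted p = 2.1e-16). Among Wnt/TCF targets it was 0.65 for CD44 (adjusted p = 1.6e-11), -1.07 for AXIN2 (adjusted p = 2.6e-08), 0.96 for ZNRF3 (adjusted p = 3.8e-08) and 0.86 for MYC (adjusted p = 7.6e-12). HES1 was under 1 CPM in U-87 MG KO, so its size is the least certain of these. The genes were named for their KO change in at least 1 line of the same libraries, so these p-values are not independent of that choice. Only called differences are given. Those of PIK3R1 (0.17, adjusted p = 0.162) and CLDN4 (-0.12, adjusted p = 0.81) were among those not called. The lines share no libraries, and what separates them was not tested.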

How the results depend on the processing

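Under the alternatives run, no log2 fold change of a listed gene changed sign in a comparison where that gene was called. EFNB1 in HCT116, not called, ranged from -0.05 to 0.11. With limma on log2(FPKM + 1), 1 listed gene was called in HCT116 in place of 3, with 1 turnover gene in place of 2 and 3 Notch genes in place of 5. With a minimum mean FPKM of 2, the counts were 0 turnover and 3 Notch genes in HCT116, and 1 other family gene (of 2) and 1 Notch gene (of 2) in U-87 MG. This minimum also left 2 of 3 listed genes called in HCT116 (without EPHA4) and 5 of 6 for the difference between lines (without EPHB3), and ended the calls of EPHA4, EPHB3 and EPHB6 between wild-type lines and of EPHB3 between KO lines. A pseudocount shrinks the folds of low genes and a higher minimum removes them. Leaving out 1 library at a time, the counts of listed genes called were 3 to 3 in HCT116, 5 to 5 in U-87 MG and 6 to 7 for the difference between lines. The main fits took the libraries as unpaired. As deviations from their group means, same-numbered KO and wild-type libraries correlated at 0.0899, 0.0515 and 0.270 in HCT116. In U-87 MG these values were 0.0436, 0.00118 and -0.00388. The HCT116 libraries numbered 3 correlated at -0.189 to -0.114 with libraries of other numbers and the opposite genotype. What the HCT116 libraries numbered 3 share was not tested. With the replicate block, 3 listed genes were called in HCT116 and 5 in U-87 MG, and no other count changed. Depth limits EFNA1 and EPHB6 in U-87 MG, with at most 9 counts in a group. Each line has 3 libraries per group from an unstated number of colonies.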
